A study of Mus musculus with 26 samples.

Results

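Lines D3 and R1 of mouse embryonic stem cells (ESC) were set against tail-tip fibroblasts over a panel of mouse microRNA (miRNA) assays. All 315 assay positions of the panel were used, in 11 of the 26 samples of the study: 3 of line D3, 3 of line R1 and 5 of fibroblasts, as their labels give them. The method was stem-loop RT-qPCR: a primer that folds on itself starts reverse transcription from the mature miRNA, and a fluorescent TaqMan probe follows the amplification. Its other samples were induced pluripotent stem cell (iPSC) clones made from such fibroblasts, iPSC treated with activin A, pancreatic islets and hepatocytes. Each value is a threshold cycle (Ct), the PCR cycle at which the signal crosses a set level, so that a higher Ct means less RNA.

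Line D3 and line R1 are established mouse ESC lines, and each group of 3 therefore stands for a single line. Both were grown in knockout serum replacement and leukemia inhibitory factor, on a layer of mouse embryonic fibroblasts stopped from dividing with mitomycin C. How much feeder RNA entered the ESC samples was not tested. The fibroblasts came from tail tips, and the sources used here do not give their strain, age or medium. Nothing in the labels ties the samples of a group to separate cultures or animals, so the p-values rest on sample-to-sample spread that may be technical. The rows of the Ct table carry plate positions, such as B74, and no miRNA names. The cell types could therefore not be checked against marker miRNAs, and lists of ESC, fibroblast and other marker miRNAs were not tested.

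A mature miRNA is a short RNA that guides a silencing complex to messenger RNAs with a matching site, which lowers their translation or stability. Mouse ESC are known for a small number of miRNA clusters that are transcribed in pluripotent cells and shut off on differentiation, and for low levels of mature let-7 family miRNAs. Fibroblasts and other mesenchymal cells carry a different set, among them miRNAs that accumulate as cells leave the pluripotent state.

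Of 3465 Ct values in the 11 samples, 449 (13.0%) were empty and 271 (7.82%) lay above 35, which was taken as the limit of detection. Of the latter, 39 were exactly 36, which may be readings or placeholders. The ESC samples had 241 to 270 assays below 35 (259.0 ± 10.0, SD, n = 6) and the fibroblast samples 187 to 272 (237.8 ± 31.3, SD, n = 5). The difference of 21.2 assays did not pass an exact permutation test over the samples (p = 0.119, 2-sided, 462 arrangements). It was 29.75 without fibroblast sample 3 (exact permutation p = 0.00952) and 8.50 without fibroblast sample 5 (exact permutation p = 0.310). Fibroblast sample 5 had the fewest detected assays and the highest Ct of the reference assays, 29.9 on plates A and B, and fibroblast sample 3 had the most detected assays and the lowest reference Ct, 23.2. The same reference lay between 27.0 and 28.5 in all 6 ESC samples. Levels are given below as log2 relative expression, the mean Ct of the reference assays minus the assay's Ct, which assumes a doubling per cycle. Empty values and values above 35 were set to 35. In bulk RNA, fewer cells of a type and less RNA per cell cannot be told apart.

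A large share of the panel separated ESC from fibroblasts. Of 276 assays tested, 138 (50%) passed limma at an adjusted p under 0.05 and are called here. Of these, 85 (30.8%) were higher in ESC, by a median of 3.47 on the log2 scale, and 53 (19.2%) were lower, with a median difference of -3.64. Both lists held large differences: 35 of the 85 higher assays and 24 of the 53 lower ones differed by over 16-fold. Differences beyond 256-fold occurred in 10 of the higher assays and in 0 of the lower ones. Those 10 lay at or near the detection limit in fibroblasts, so the sizes of their differences depend on the limit. Among called assays detected in all 11 samples, the largest rise was 6.33 on the log2 scale (A88) and the largest fall -6.41 (B14). Over all 276 assays the median difference was 0.71 and its median size 1.98.

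The excess of higher over lower calls moved with the scaling. Without a reference, on raw Ct, 37 assays were called higher and 55 lower (40.2% of calls higher, against 61.6% with the reference), and the median over all assays was -0.48. After quantile normalization the counts were 64 and 69, and the median was -0.04. With the reference restricted to assays earlier than Ct 30, 98 were called higher and 49 lower, with a median of 1.00. Under the reference, raw Ct and quantile normalization alike, 37 assays were called higher and 51 lower. Over all 6 scalings run, 37 were called higher and 44 lower throughout. Without fibroblast sample 5, the sample with the latest reference Ct, 108 were called higher and 53 lower.

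**Figure D1:**
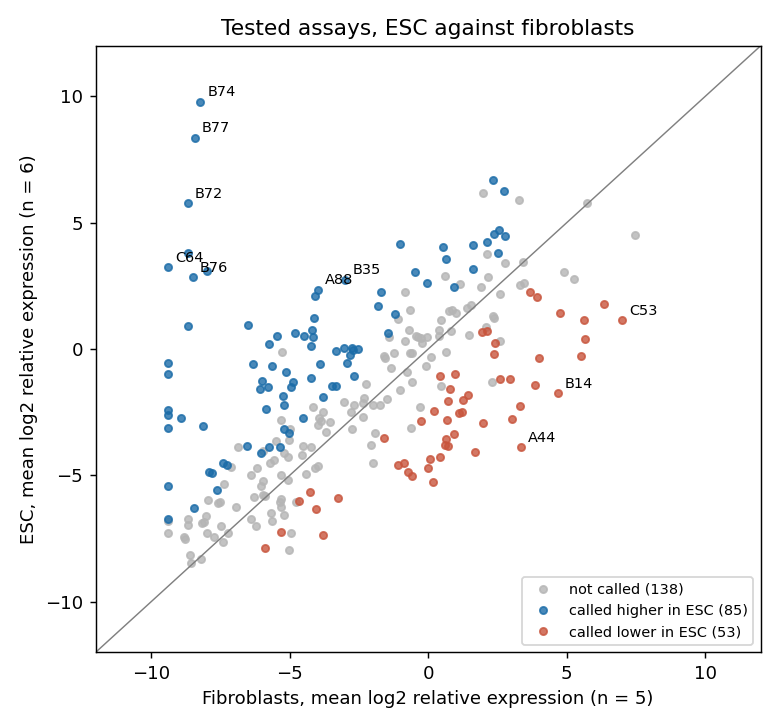
Mean log2 relative expression of each of the 276 tested assays in fibroblasts (x axis, n = 5) and in ESC (y axis, n = 6), with the line of equal levels. Blue points are the 85 assays called higher in ESC, red points the 53 called lower and grey points the 138 not called. The blue points at the left edge are assays at or near the detection limit in fibroblasts, and most of the red points lie at fibroblast levels above 0.

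The higher and the lower assays differed in how the other cell type stood. Of the 85 called higher, 79 were detected in all 6 ESC samples, 43 in all 5 fibroblast samples and 11 in no fibroblast sample. Of the 53 called lower, 49 were detected in all fibroblast samples, 39 also in all ESC samples, and 0 were undetected throughout ESC. All 6 ESC samples lay above all 5 fibroblast samples for 53 of the higher assays, against a background of 20.3% of all assays tested. All 6 lay below for 38 of the lower ones, against a background of 15.6%. The calls rest on these same samples and the backgrounds include the called assays, so this adds no support to the calls. Among the 156 assays detected in all 11 samples, 43 were called higher and 39 lower. The limit plays no part in their ESC and fibroblast levels. Values at the limit in other cell types could still enter the spread, which all groups share.

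Detection alone separated the cell types in 1 direction. Below Ct 35, 9 assays were present in all 6 ESC samples and in no fibroblast sample, and 0 showed the reverse. These 9 sat on plate B (3 assays) and plate C (6 assays), and their mean Ct in ESC ran from 21.8 to 29.8. The lowest Ct listed for any of them in a fibroblast sample was 36.1, and 3 of them had no Ct in any fibroblast sample. All 9 were among the assays called higher, with differences from 6.25 to 14.47. The size of such a difference depends on the limit, since the fibroblast value is the limit itself.

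Assay B72 had the lowest mean Ct in ESC of these 9. Its Ct was 21.1, 21.0 and 22.01 in line D3 and 22.4, 23.2 and 21.0 in line R1. In fibroblasts it was 38.7 and 37.8 in samples 1 and 3, and the other samples had no Ct. Every ESC sample was thus more than 10 cycles ahead of the earliest fibroblast value. The log2 difference was 14.47 (SE 0.81, limma adjusted p = 6.62e-12), and it was 11.47 with the limit at 32 and 18.76 with the limit at 40. The difference was alike in both lines, 14.48 for D3 and 14.45 for R1.

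Assay C64 had the next lowest mean Ct. It read 23.1, 22.5 and 22.2 in D3 and 28.0, 23.9 and 21.1 in R1, against 39.1 and 37.2 in fibroblast samples 1 and 3 and no Ct in the rest. All ESC samples were again clear of the fibroblasts, but R1 sample 1 stood 4 cycles or more behind every other ESC sample. The log2 difference was 12.62 (SE 0.87, limma adjusted p = 1.88e-10), with a range of 9.62 to 16.87 over the limits of 32 and 40.

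In iPSC, which were not used to choose these 9 assays, 8 of the 9 were detected in all 5 clones, and 43 of 45 values lay below 35. Most tested assays were detected in all 5 clones. This held for 79 of the 85 called higher, 42 of the 53 called lower and 93 of the 138 not called. In islets 1 of 27 values lay below 35, at 34.9, and in hepatocytes 3 of 27 did. One of these 3 was a Ct of 7.98 for assay B75 in hepatocyte sample 3, earlier than any ESC value of that assay. None of the 9 was detected in all samples of islets or of hepatocytes. All islet samples showed 67 of the 85 assays called higher, 51 of the 53 called lower and 118 of the 138 not called. All hepatocyte samples showed 48, 41 and 89 of them.

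The largest fitted differences belonged to assays B74 and B77, both in a stretch of neighbouring positions that were all higher in ESC. B74 had a Ct of 17.2, 16.0 and 16.6 in D3 and of 20.6, 19.3 and 17.0 in R1. Fibroblast samples 1 and 3 gave 33.4 and 34.4 and the others no Ct. B77 read 18.6, 19.2 and 19.1 in D3, 21.0, 19.9 and 17.4 in R1, and 33.7 in fibroblast sample 3 alone. Both were thus among the earliest assays in ESC and at the edge of detection in fibroblasts, with no overlap. B74 differed by 18.03 on the log2 scale, with an SE of 0.79 (limma adjusted p = 1.64e-13). B77 differed by 16.80, with an SE of 0.85 (limma adjusted p = 1.31e-12). Both sizes depend on the limit set for fibroblast samples without a Ct, and over the alternatives they ran from 15.47 to 21.03 for B74 and from 14.05 to 20.80 for B77. The means of D3 and R1 differed by 1.55 for B74 (95% interval -0.67 to 3.77) and by -0.34 for B77 (-2.73 to 2.05).

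The stretch ran over 8 positions, B71 to B78, the longest unbroken run of assays called higher, and was picked out after its values were seen. Its members differed by 3.47 (B78) to 18.03 (B74). It held B71, B72 and B75, 3 of the 9 assays present in every ESC and no fibroblast sample. B78, at its end, was detected in both cell types: its Ct was 28.8 to 33.0 in ESC and 29.8 to 36 in fibroblasts, the last listed as exactly 36. The longest run of assays called lower was 4 positions, A41 to A44. The sources used here do not say what neighbouring positions share.

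**Figure D2:**
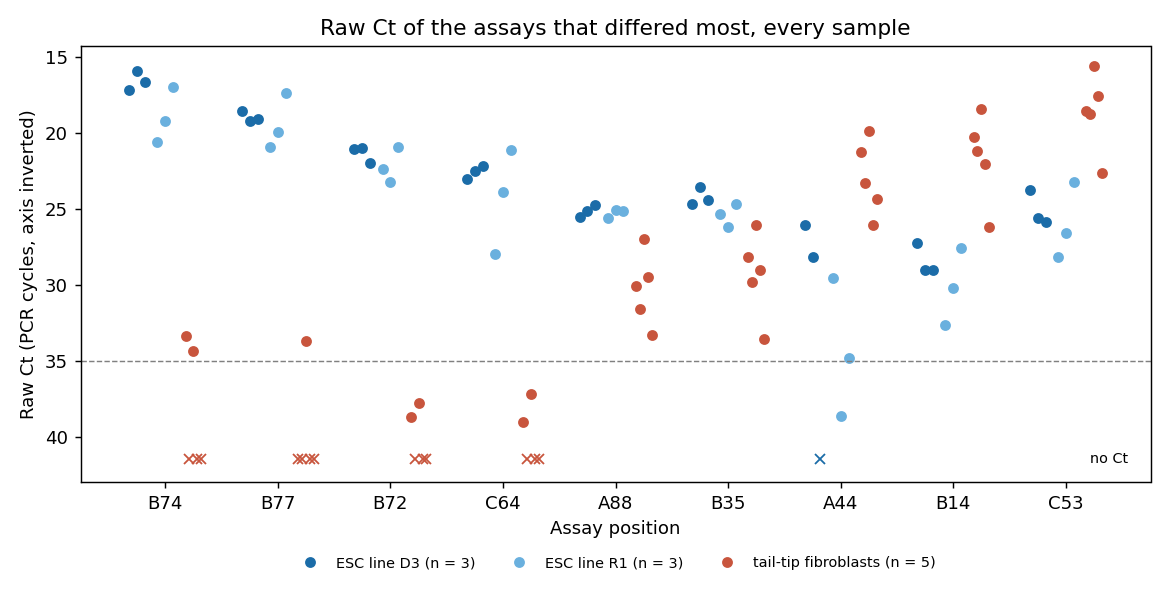
Raw Ct (y axis, PCR cycles, inverted so that more RNA is higher) of 9 assays in every sample: ESC line D3 (dark blue, n = 3), ESC line R1 (light blue, n = 3) and fibroblasts (red, n = 5). The dashed line is the limit of 35 and crosses mark samples without a Ct. B74, B77, B72 and C64 are near or past the limit in fibroblasts, A88 and B35 are detected throughout and earlier in ESC, and A44, B14 and C53 are earlier in fibroblasts.

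Among assays detected in all 11 samples, A88 and B35 rose the most in ESC. A88 was even across ESC, at 25.5, 25.1 and 24.8 in D3 and 25.6, 25.1 and 25.1 in R1. In fibroblasts it read 30.1, 31.6, 27.0, 29.5 and 33.3. Every ESC sample was earlier than every fibroblast sample, also on raw Ct. The difference was 6.33 on the log2 scale (SE 0.53, limma adjusted p = 4.71e-09), or 80.4-fold, and it ranged from 5.08 to 6.83 over the alternative settings.

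B35 read 24.7, 23.6 and 24.5 in D3, 25.3, 26.2 and 24.7 in R1, and 28.2, 29.8, 26.05, 29.01 and 33.6 in fibroblasts. On raw Ct R1 sample 2, at 26.2, was later than fibroblast sample 3, at 26.05. Relative to the reference the groups were apart, since fibroblast sample 3 had early values throughout the panel. The difference was 5.74 (SE 0.40, limma adjusted p = 1.88e-10), or 53.6-fold. It was 4.50 on raw Ct, the lowest value among the alternatives. B35 was the more even of the pair in fibroblasts, with an SD of 0.44 on the log2 scale against 0.82 for A88.

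Of the assays lower in ESC, A44 showed the largest difference. Fibroblasts gave 21.2, 23.3, 19.9, 26.1 and 24.4. Line D3 gave 26.1 and 28.2 and no Ct in sample 3, and line R1 gave 29.6, 38.7 and 34.8. The fibroblasts were early throughout, while the ESC samples were scattered over more than 12 cycles. D3 sample 1 and fibroblast sample 4 met at 26.1, and on relative expression the groups overlapped there. The difference was -7.23 (SE 1.46, limma adjusted p = 0.000303), and it ranged from -8.67 to -5.54 over the alternatives.

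B14 fell in ESC without such scatter and was detected in all 11 samples. It read 27.3, 29.05 and 29.04 in D3 and 32.7, 30.2 and 27.6 in R1, against 20.3, 21.2, 18.5, 22.1 and 26.2 in fibroblasts. The latest fibroblast value, in sample 5, was still ahead of the earliest ESC value. The difference was -6.41 (SE 0.66, limma adjusted p = 8.86e-08), 85.2-fold more in fibroblasts. In D3 it was -5.96 and in R1 -6.86, and the lines differed by 0.90 (95% interval -0.95 to 2.75).

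C53 was among the earliest assays in fibroblasts, at 18.5, 18.8, 15.6, 17.6 and 22.6. Its Ct in ESC was 23.8, 25.6 and 25.9 in D3 and 28.2, 26.6 and 23.3 in R1. It was thus readily measured in ESC too, and the groups did not overlap. The difference was -5.85 (SE 0.79, limma adjusted p = 3.92e-06), 57.6-fold more in fibroblasts.

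Few assays could be shown to lie close in the cell types. The median half-width of the 95% interval was 1.55 on the log2 scale. For 31 of 276 assays the interval lay within a 4-fold difference either way, and for 0 within a 2-fold difference. Among the 156 assays detected in all 11 samples, the farther bound of the interval lay nearest 0 for C70 and B03. C70 read 27.0, 25.4 and 25.1 in D3, 27.1, 26.8 and 25.5 in R1, and 26.4, 25.3, 22.7, 22.5 and 29.2 in fibroblasts, so the fibroblasts spanned the ESC values. Its difference was 0.13 (95% interval -0.86 to 1.13). It was called higher, at 1.78, when only assays earlier than Ct 30 served as reference (limma adjusted p = 0.00132; up to 0.991 under its other alternatives).

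B03 read 29.4, 30.5 and 30.2 in D3, 30.6, 30.4 and 29.2 in R1, and 28.1, 29.2, 27.1, 28.5 and 32.7 in fibroblasts. On raw Ct 3 of the 5 fibroblast samples were ahead of the earliest ESC value, and on relative expression the groups overlapped. Its difference was 0.29 (95% interval -0.60 to 1.17), and its sign turned under several scalings.

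A missing call was not always a small difference. Of the 138 assays not called, 21 differed by over 4-fold and 2 by over 16-fold, A75 and B54, named here after their values were seen. A75 read 20.4 to 22.6 in ESC and 20.4, 21.1, 20.9 and 24.3 in fibroblasts, with no Ct in fibroblast sample 3. Its difference of 4.19 (SE 2.51, limma adjusted p = 0.172) dropped to 0.74 when values at the limit were left missing (limma adjusted p = 0.698). B54 read 25.4 to 27.0 in 5 ESC samples and had no Ct in R1 sample 1. In fibroblasts it was later, at 27.4, 29.6, 30.8 and 35.1 and no Ct. Its difference of 5.16 (SE 2.24, limma adjusted p = 0.0613) was 5.52 with such values left missing (limma adjusted p = 0.00581).

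The share of assays called differed in direction from plate to plate. On plate A 21 of 91 tested assays were called higher and 26 lower. Plate B had 30 higher and 15 lower of 85, and plate C 32 higher and 10 lower of 81. On plate D, with 28 positions, 2 were called higher and 2 lower of 19 tested. The reference rested on 87 assays for plates A and B together, 26 for plate C and 9 for plate D, and the plate D reference of fibroblast sample 4 includes a Ct of 2.74. With Ct values below 12 left missing, an alternative chosen after seeing the data, plate D again had 2 calls in each direction, but not for the same assays: D08 was called higher, and D14, called higher otherwise, was at 1.38 (limma adjusted p = 0.0771).

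Each ESC line on its own gave nearly the same number of calls against the shared fibroblasts. Line D3 had 117 of 273 assays called (42.9%), 70 higher (25.6%) and 47 lower (17.2%). Line R1 had 118 of 275 called (42.9%), 75 higher (27.3%) and 43 lower (15.6%). The 5 fibroblast samples are the same in both comparisons. Of 270 assays tested in both, 63 were called higher in both lines, 6 in D3 alone and 12 in R1 alone. Lower calls were shared by 39 assays, with 8 in D3 alone and 4 in R1 alone. Being called in 1 line alone is not a difference between the lines. Of the 18 assays called higher in a single line, the direct comparison of D3 with R1 had an unadjusted limma p under 0.05 for 0, and of the 12 called lower for 2.

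The lines themselves were not told apart by any assay. Of 273 assays tested, limma called 0 (0.0%) between D3 and R1, and 3 (1.1%) had an unadjusted p under 0.05. The smallest adjusted p was 1.00. The median half-width of the 95% interval was 2.11, so smaller differences in general fell short even of an unadjusted p under 0.05. A call needs more, since it rests on the adjusted p. With 3 samples a line, C77 was not called at 6.09. For 48 assays the interval excluded a difference over 4-fold. The 3 assays with an unadjusted p under 0.05 were fewer than the 1 in 20 that chance gives. That count was 8 with weights set per group and 13 without R1 sample 1, again with 0 called. The spread behind these p-values was shared over all groups, so the 0 calls do not show the lines to be alike.

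**Figure D3:**
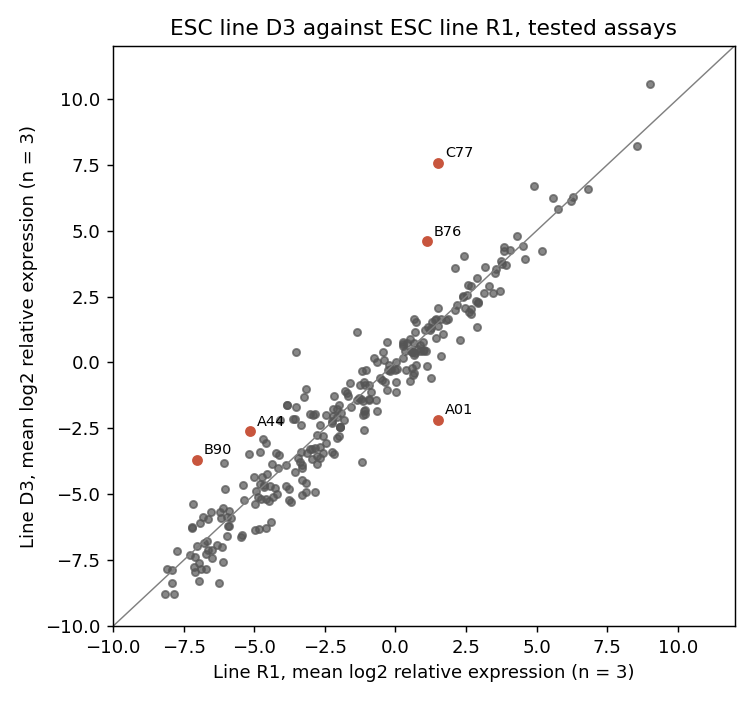
Mean log2 relative expression in ESC line R1 (x axis, n = 3) and line D3 (y axis, n = 3), with the line of equal levels. Red points are the labelled assays A01, A44, B76, B90 and C77, which lie farther from the line than most of the grey points. In A01 and C77 the distance comes with a single sample that had no Ct.

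The 2 assays with the smallest p in each direction of the line difference, C77, B90, A01 and B59, each held a single sample that stood apart or was empty. C77 read 20.3, 19.003 and 17.8 in D3 and 20.5 and 20.3 in R1 samples 2 and 3, and R1 sample 1 had no Ct. On relative expression the D3 and R1 samples with a Ct overlapped. The difference of D3 over R1 was 6.09 (SE 2.38, limma unadjusted p = 0.0184) with the empty sample at the limit and 1.64 with it left missing (limma unadjusted p = 0.283).

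A01 was the mirror case, with no Ct in D3 sample 1, 27.3 and 25.7 in the other D3 samples and 26.4, 27.0 and 26.003 in R1. The line difference was -3.68 (limma unadjusted p = 0.0153), and -0.76 with the empty value left missing (limma unadjusted p = 0.180). All fibroblasts were earlier, at 20.8, 23.2, 19.4, 23.0 and 25.2. Its difference between ESC and fibroblasts was -4.35 (limma adjusted p = 0.00134) and -2.89 with the empty value left missing or without D3 sample 1.

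B90 was near the limit in most samples, at 33.3, 33.3 and exactly 26 in D3 and 35.7, 35.6 and 37.7 in R1. D3 sample 3 was the early value, and the line difference was 3.35 (limma unadjusted p = 0.0215). B59 read 32.4 and 32.9 in D3, with no Ct in sample 2, and 33.4, 32.1 and 32.1 in R1. Its line difference was -1.69 (limma unadjusted p = 0.0686) and lay within the scatter of the samples with a Ct.

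Scatter within a group was also looked at among assays detected in all of its samples, since an empty value set to the limit adds scatter of its own. Among assays detected in all ESC samples, B76 had the largest SD, 7.51 on the log2 scale. It read 17.9, 16.0 and 33.8 in D3 and 20.3, 31.3 and 29.02 in R1, so that each line held both early and late samples. In fibroblasts it gave 35.02 and 34.1 and no Ct in the others. It was called higher in ESC, at 11.36 (SE 2.92, limma adjusted p = 0.00266), and the call was lost with values at the limit left missing, at 10.23 (limma adjusted p = 0.182).

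A40 was next among these, with an SD of 2.73. It read 31.0, 31.6 and 30.5 in D3 and 25.9, 33.3 and 32.9 in R1, where sample 1 was 4 cycles ahead of any other ESC sample. Fibroblasts gave 26.4, 29.04, 23.6, 28.2 and exactly 34 and overlapped the ESC samples, and the difference of -1.39 was not called (limma adjusted p = 0.650).

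Among assays detected in all fibroblast samples, the most scattered were D08 and A45, both through fibroblast sample 4. D08 read 23.4, 25.5, 22.3, 2.74 and 30.5 in fibroblasts and 24.9, 22.8, 23.1, 23.2, 23.9 and 23.0 in ESC. The Ct of 2.74 is the only value below 12 in the 11 samples. With it, the difference was -1.85 and not called (limma adjusted p = 0.557). Without fibroblast sample 4 it was 2.23 and called higher in ESC (limma adjusted p = 0.00137), and with values below 12 left missing it was 2.50 (limma adjusted p = 0.000799).

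A45 read 22.9, 25.1, 21.5, 33.7 and 26.1 in fibroblasts, with sample 4 the late value, and 27.1, 29.5, 28.8, 28.0, 31.0 and 29.9 in ESC. The other four fibroblast samples were earlier than every ESC sample. The difference was -1.94 (limma adjusted p = 0.274) with all samples and -3.85 without fibroblast sample 4 (limma adjusted p = 0.00258).

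**Figure D4:**
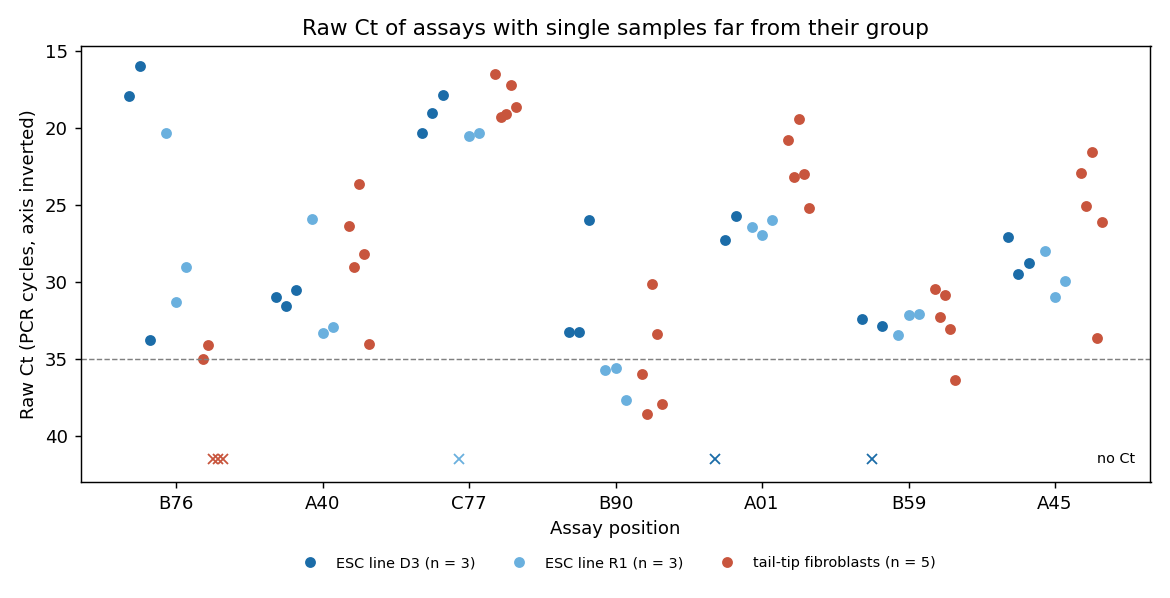
Raw Ct (y axis, PCR cycles, inverted) of 7 assays in which single samples lay far from their group, in ESC line D3 (dark blue, n = 3), ESC line R1 (light blue, n = 3) and fibroblasts (red, n = 5). The dashed line is the limit of 35 and crosses mark samples without a Ct. B76 is split within each line, and in A45 fibroblast sample 4, at 33.7, lies below the other four.

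Very early values in other samples also reached these comparisons, because all groups share 1 estimate of the spread. Of the 276 tested assays, 13 held a Ct below 12 in at least 1 of the 26 samples, for 12 of them outside ESC and fibroblasts. Of the 13, 2 were called, and 5 were called with such values left missing. Assay A34 shows the size of it, picked after its values were seen. All 6 of its ESC samples lay above all 5 fibroblast samples on relative expression, and its difference of 3.08 had an SE of 2.34 (limma adjusted p = 0.284) with a Ct of 10.4 in hepatocyte sample 1. With that value left missing the difference was 3.13, with an SE of 0.47 (limma adjusted p = 1.28e-05). For B75, which had a Ct of 7.98 in hepatocyte sample 3, the SE went from 3.15 to 0.83 about a difference of 12.49.

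The median SD between samples was larger in fibroblasts than in either line. Over the 156 assays detected in all 11 samples, the median SD of raw Ct was 2.57 in fibroblasts (n = 5), 0.717 in D3 and 1.02 in R1 (n = 3 each). Without fibroblast sample 5 the raw Ct median of fibroblasts was 1.69. The reference narrowed the gap: on log2 relative expression the medians were 0.996, 0.659 and 0.682. The fibroblast SD was above those of both lines for 87 of the 156 assays (55.8%). Over the 61 assays that stayed under Ct 30 in each of the 11 samples, the medians were 0.848, 0.594 and 0.546. The SDs rest on 5 samples in fibroblasts and 3 in each line, and no allowance was made for this, also in the 55.8%. Assays are not replicates, and no test was made over them.

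The called assays were then followed into the other cell types, whose levels were not part of the contrast, although their samples entered the shared spread and the choice of reference assays. For the 85 assays higher in ESC, the median over assays of mean log2 relative expression was -0.03 in ESC and -4.88 in fibroblasts, which the choice sets. It was 0.15 in iPSC, -2.48 in islets and -5.22 in hepatocytes. All 5 iPSC clones had 79 of the 85 below Ct 35, all 3 islet samples 67 and all 3 hepatocyte samples 48, and 13 were detected in no islet sample and 19 in no hepatocyte sample. In the same order, 42, 51 and 41 of the 53 assays called lower were detected in all samples. Of the 138 assays not called, 93, 118 and 89 were. Undetected throughout islets were 0 of the 53 and 5 of the 138, and throughout hepatocytes 3 and 18. For the 53 assays lower in ESC the median was -2.53 in ESC and 0.98 in fibroblasts by choice, -2.55 in iPSC, 0.01 in islets and -0.88 in hepatocytes. The 138 assays not called had medians of -2.71 in ESC, -2.64 in iPSC, -2.02 in islets, -2.13 in hepatocytes and -2.75 in fibroblasts. These are descriptions of levels, and no difference between the lists was tested. An assay at the limit has a level set by the reference Ct, which differs by cell type and plate. On plate C that level was -9.38 in fibroblasts, -8.40 in islets and -6.47 in hepatocytes.

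**Figure D5:**
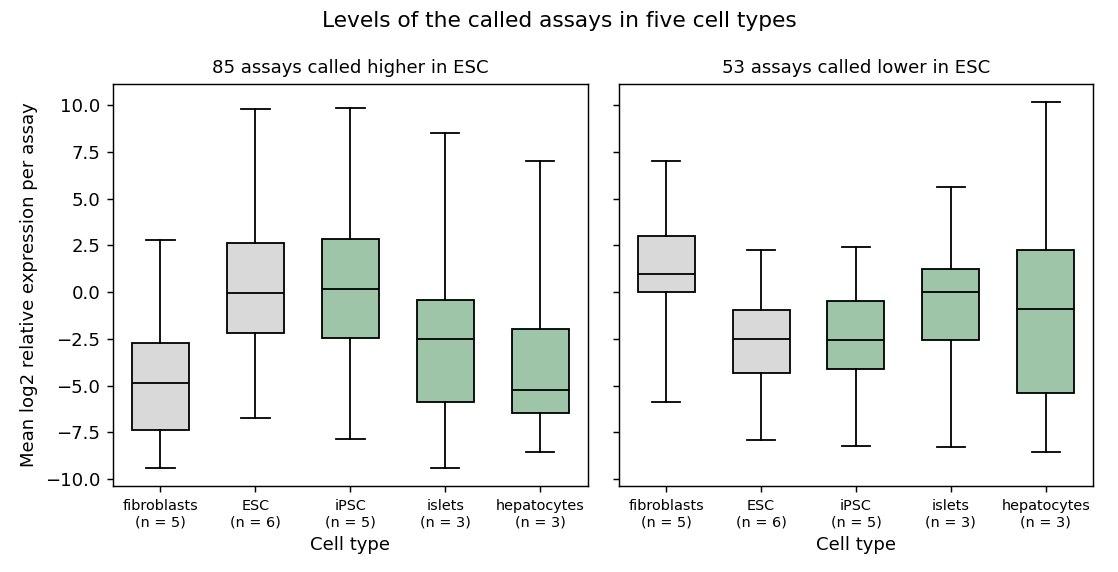
Mean log2 relative expression per assay (y axis) in fibroblasts, ESC, iPSC, islets and hepatocytes, for the 85 assays called higher in ESC (left) and the 53 called lower (right). Boxes span the quartiles with the median as a line, and whiskers reach the lowest and highest assay. Assays at the detection limit do not have the same level in each cell type. Grey boxes are the groups of the contrast, and in both panels the iPSC median lies beside that of ESC.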

How the data were processed

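The deposited table holds raw Ct values, in PCR cycles, per plate position. Per the labels' protocols, 303 miRNAs were assayed from 5 ng of RNA a reaction, over 40 cycles, and the authors normalized to RNU6. No position is labelled RNU6, so it was not used here. The deposited fold-change table holds no ESC and was not used. Ct software and threshold settings were not given in the sources used here. All 315 positions were treated as miRNA assays.

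The reference was the mean Ct of assays below 35 in all 26 samples, per plate set. Assays entered a test where 50% or more of either group's samples lay below 35. Group means were fitted with limma 3.58.1 (R 4.3.3), after a test on simulated data, over all groups in 24 columns, since the 2 activin-treated samples of a clone were averaged. The contrast gave D3 and R1 equal weight. P-values were adjusted by Benjamini-Hochberg over all assays tested (threshold 0.05, 2-sided). Python 3.11.15, pandas 2.3.3 and numpy 2.4.6 made the tables, and matplotlib 3.10.9 the plots.

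The samples compared, lists and tests were chosen with earlier results of these data known. Assays were named by rule: the 2 largest rises and falls among called assays that every sample of the higher group showed, and among those all 11 showed; the 2 lowest mean Ct among assays found in ESC alone; the 2 narrowest intervals about 0; the 2 smallest p per direction for D3 against R1; and the 2 largest SDs in each cell type among assays detected in all of its samples. Alternatives covered the reference, limit, filter, spread model, replicate block and each sample left out. Same-numbered samples of different groups had correlations of deviations from -0.154 to 0.212 over 9 pairs, so numbers were not taken to pair samples. A late Ct is less precise than an early one, and repeat reactions of a sample were not analysed here.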

Additional observations from a re-analysis of the deposited data

Results flagged for a closer look

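In 46 checks for a sample far from the rest of its group, over the assays named and the detection and reference values, 8 stood out. Chance gives about 1 in 20 for groups not picked by their values, but 6 of the 8 are on assays named for a large SD or a small p between the lines, so that rate does not apply to them. Values are log2 relative expression. In ESC, A01 in D3 sample 1 stood at -8.01, with the nearest other sample at 0.17, and C77 in R1 sample 1 at -7.42, with the nearest at 4.98. Both have no Ct and stand at the limit. C64 in R1 sample 1 was at -0.42 (nearest 3.51) and was measured. On the high side, A40 in R1 sample 1 was at 2.07 (nearest -3.51), B90 in D3 sample 3 at 1.02 (nearest -5.79) and B35 in D3 sample 2 at 3.90 (nearest 2.77). R1 sample 1 thus holds 3 of the 6 ESC values. In fibroblasts both fell to sample 4, with D08 at 21.23 (nearest 1.87), which is the Ct of 2.74, and A45 at -7.16 (nearest 1.64).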

How the results depend on the processing

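Of the 11 named assays called between ESC and fibroblasts, 9 kept direction and call under every alternative run for them. B72 and C64 had 26 alternatives, B74, B77 and A44 had 27, and A88, B35, B14 and C53 had 28. The settings missing for B72, C64, B74, B77 and A44 leave out values or assays at the limit. B76 lost its call with values at the limit left missing, and A01 under the replicate block (limma adjusted p = 0.0669; range over its alternatives 3.63e-06 to 0.0669). On raw Ct, 37 assays were called higher in ESC; D3 had 75 calls (36 higher) and R1 77 (27 higher). With only assays below 35 in every sample, ESC had 83 calls (44 higher), D3 72 (32 higher) and R1 71 (38 higher). With any Ct as detection, 4 assays were in all ESC and no fibroblast sample. Leaving out each sample in turn gave 75 to 108 higher, 47 to 53 lower and 123 to 161 calls for ESC, 89 to 127 for D3 and 107 to 140 for R1, and 0 between the lines. In all 12 of these fits, the full one included, 70 assays were called higher and 45 lower. The 2 line means in place of 6 ESC samples left 61 higher and 38 lower, and the line as a random block 69 and 47. Values below Ct 12 left missing gave 88 and 55, and fibroblast samples 3 and 5 left out 87 and 49, both chosen after seeing the data. Over 28 settings, all but the filter to assays below 35 in every sample, 26 assays were called higher and 35 lower throughout.

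The fit with a replicate block, for numbers that were not taken to pair samples, used the ESC and fibroblast samples alone. Fibroblast samples 4 and 5 share their number with no ESC sample, so the block terms took them up. Differences of ESC over fibroblasts in this fit therefore rested on fibroblast samples 1 to 3. This fit called 94 higher and 58 lower, 133 for D3, 138 for R1 and 0 between the lines. It gained the call of A45 (-3.38). B90 and C77, not called between ESC and fibroblasts, were called without fibroblast sample 5 (2.59) and without R1 sample 2 (-4.28).

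The sign turned for assays near 0: B03 was -0.14 with reference assays below Ct 30, -0.96 on raw Ct, -0.76 after quantile normalization and -0.093 without fibroblast samples 3 and 5. B59 was -0.65 on raw Ct and -0.71 after quantile normalization. C70 was -0.94 and -0.094 under those 2, -0.032 with values below 12 left missing, and -0.26 to 0.38 with samples left out (-0.26 without fibroblast sample 1, -0.0084 without D3 sample 3). D08 turned to 2.06 under the replicate block and 2.50 with values below 12 left missing, and ranged from -3.14 to 2.23 with samples left out (2.23 without fibroblast sample 4). C33, not called at 0.08, was called lower after quantile normalization (-1.58) and higher with reference assays below Ct 30 (1.73). The cause was not tested, except that D08 turned with its value of 2.74.

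The difference in detected assays ranged from 8.50 to 29.75 with samples left out. The reference Ct of ESC minus fibroblasts was 1.25 for plates A and B (0.46 to 2.13 with samples left out), 1.08 for C (0.58 to 2.00; 2.72 with reference assays below Ct 30) and 0.74 for D (-0.20 to 2.01; -0.20 without fibroblast sample 3). With samples left out, the highest in each set was without fibroblast sample 5. The median SD of R1 was 0.408 to 0.640 with samples left out.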
